A study of Mus musculus with 2 samples.

Results

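Macrophages and other myeloid cells of the intestinal lamina propria were described in 2 single-cell RNA sequencing libraries, 1 per genotype. The cells were selected on measured counts, in UMIs (unique molecular identifiers, 1 per captured RNA molecule). A droplet barcode was taken as a cell of this kind when it held at least 1000 UMIs, at most 20% of them mitochondrial, and at least 3 of the 6 myeloid genes C1qa, C1qb, C1qc, Csf1r, Lyz2 and Mpeg1. It also had to hold at least 1 UMI of Ptprc, which encodes the leukocyte antigen CD45, and none of Cd79a (B cells), Cd3e (T cells) or Pdgfra (fibroblasts). The rule found 506 cells among the 16190 barcodes that passed the UMI and mitochondrial limits, 223 of 7593 in ApcMin and 283 of 8597 in VApcMinL.

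The ApcMin library came from mice of genotype ApcMin/+;Lef1 +/+, and the VApcMinL library from ApcMin/+;Lef1 fl/fl mice that also carried Villin-Cre. Both groups thus carried the Min allele of the tumor suppressor Apc, which gives intestinal adenomas, and no library without it was analysed here. Villin-Cre acts in the intestinal epithelium, so the macrophages of the VApcMinL mice were not the cells in which Lef1, a transcription factor of the Wnt pathway, was to be deleted. All mice were C57BL/6 and 11 weeks old, the floxed Lef1 line having been backcrossed from a mixed background with 129SV, and the number of mice behind each library was not given. Live lamina propria cells were sorted as negative for Ter119, Epcam and CD45, a gate meant to leave leukocytes out, so each share below describes leukocytes that remained after that gate. With 1 library per genotype no test between genotypes was possible. The intervals are exact 95% intervals that cover counting error only, and they say nothing about the spread between mice.

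Intestinal macrophages are renewed largely from blood monocytes and lie beneath the epithelium, around crypts, vessels and nerves. They take up dead cells and microbes, present antigen on MHC class II and are known for a high output of the complement protein C1q and of the cytokine Il10. Signaling through the receptor Csf1r keeps them alive, and the factor PU.1, encoded by Spi1, drives much of the myeloid program.

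The upstream sequences of both C1q genes found in the RefSeq promoter table are shown because the C1q chains define nearly all of these cells. They are printed 5′ to 3′ from the RefSeq promoter table and end ahead of the GENCODE gene start. The core motif bound by PU.1, GAGGAA, was searched on both strands and is in capitals (TTCCTC on the other strand). The windows lie at chr4:136886201-136886450 for C1qb and at chr4:136893066-136893164 for C1qc, both on the minus strand of GRCm38.p6.
C1qb: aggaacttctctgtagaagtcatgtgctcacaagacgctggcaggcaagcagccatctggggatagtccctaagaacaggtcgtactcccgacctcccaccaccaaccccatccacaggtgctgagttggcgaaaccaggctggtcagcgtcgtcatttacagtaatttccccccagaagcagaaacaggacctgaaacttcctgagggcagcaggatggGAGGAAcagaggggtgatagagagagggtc
C1qc: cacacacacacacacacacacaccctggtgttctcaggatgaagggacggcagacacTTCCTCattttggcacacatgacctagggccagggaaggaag
Each window held 1 match. The same letters stood in 23.3% of all 32851 promoter windows of 250 bases, so a match is common and is given as a description of the sequence only. Of the 6 rule genes and Lyz1, 5 of 7 had an entry in the table.

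The label was checked against marker genes that the rule did not use. Among the 17 further myeloid genes, each was detected in the cells of both libraries, and at least 3 of them were found in 99.1% of ApcMin and 99.6% of VApcMinL cells. The same minimum was also met by 1281 and 1195 of all passing barcodes, so it does not separate these cells from others, and the levels are the better guide. Their summed level was 12051 counts per 1000000 UMIs (CPM) in ApcMin and 13404 CPM in VApcMinL, against 964 and 834 CPM in droplets without a cell. Per cell, the sum ran from 1.69 to 283 UMIs per 10000 in ApcMin, with a median of 119. It ran from 2.64 to 334 in VApcMinL, with a median of 149. Their pooled level was thus above that of empty droplets by a wide margin, while the lowest cells of both libraries lay below the empty-droplet level. Among the rule genes, which are no independent check, at least 2 of the 3 C1q chains were found in 97.3% (94.2% to 99.0%) of ApcMin and 98.9% (96.9% to 99.8%) of VApcMinL cells.

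Some defining genes of other myeloid cells had few UMIs, and other genes of the same lists had more. The neutrophil genes S100a8 and S100a9 had 1 and 0 UMIs in all ApcMin cells together and 0 and 1 in all VApcMinL cells. The monocyte gene Ly6c2 had 15 UMIs in each library, the dendritic cell genes Flt3 and Zbtb46 had 13 and 4 UMIs in ApcMin and 7 and 6 in VApcMinL, and the eosinophil gene Epx had none in either. The mast cell gene Cpa3 had 4 and 1 UMIs. By contrast, Ccr2 of the monocyte list had 77.2 CPM in ApcMin and 34.7 CPM in VApcMinL. Of the common dendritic cell list, Itgax had 209 and 210 CPM and Batf3 had 76.8 and 58.2 CPM. Broader lists, which hold genes that macrophages also use, were found more often. At least 3 genes of the monocyte list were found in 25.1% of ApcMin and 15.5% of VApcMinL cells, at 920 and 770 CPM in sum. At least 3 genes of the cDC2 list were found in 28.3% and 13.8%, and of the cDC1 list in 13.004% and 4.24%. Of the neutrophil list, 9.87% of ApcMin and 8.13% of VApcMinL cells held at least 3 genes, but its summed level of 931 and 1184 CPM came with S100a8 and S100a9 near 0 and Ly6g, Camp and Ngp at 0 in both libraries. The list also contains Mmp9, which reached 571 and 749 CPM in these macrophages. The cells are called macrophages below for short, and a share of monocytes or dendritic cells among them was not tested. The lists of both conventional dendritic cell subsets gave 532 and 349 CPM (cDC1) and 664 and 591 CPM (cDC2), the common dendritic cell list 347 and 393 CPM, the migratory dendritic cell list 233 and 228 CPM and the plasmacytoid dendritic cell list 490 and 491 CPM. The mast cell and basophil list gave 49.6 and 3.71 CPM and the eosinophil list 6.91 and 12.4 CPM.

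The levels of the rule genes are a description, as they chose the cells. The plot of levels in 4 kinds of barcode sets them beside B cell, T cell and fibroblast barcodes defined with Ptprc, Cd79a, Cd3e and Pdgfra. C1qa had 3726 CPM in ApcMin and 4424 CPM in VApcMinL macrophages, against 2.51 and 2.89 CPM in fibroblast barcodes. C1qb had 2875 and 3739 CPM, and C1qc had 2575 and 2843 CPM. Csf1r had 1133 and 1326 CPM, the pore-forming protein gene Mpeg1 had 1389 and 1135 CPM, and the lysozyme gene Lyz2 had 4669 and 4188 CPM. The order of the libraries turned for Csf1r when the profile of empty droplets was subtracted, and for Lyz2 under 3 of the alternatives. All 6 genes were detected in 88.3% of ApcMin and 81.6% of VApcMinL macrophages.

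**Figure D1:**
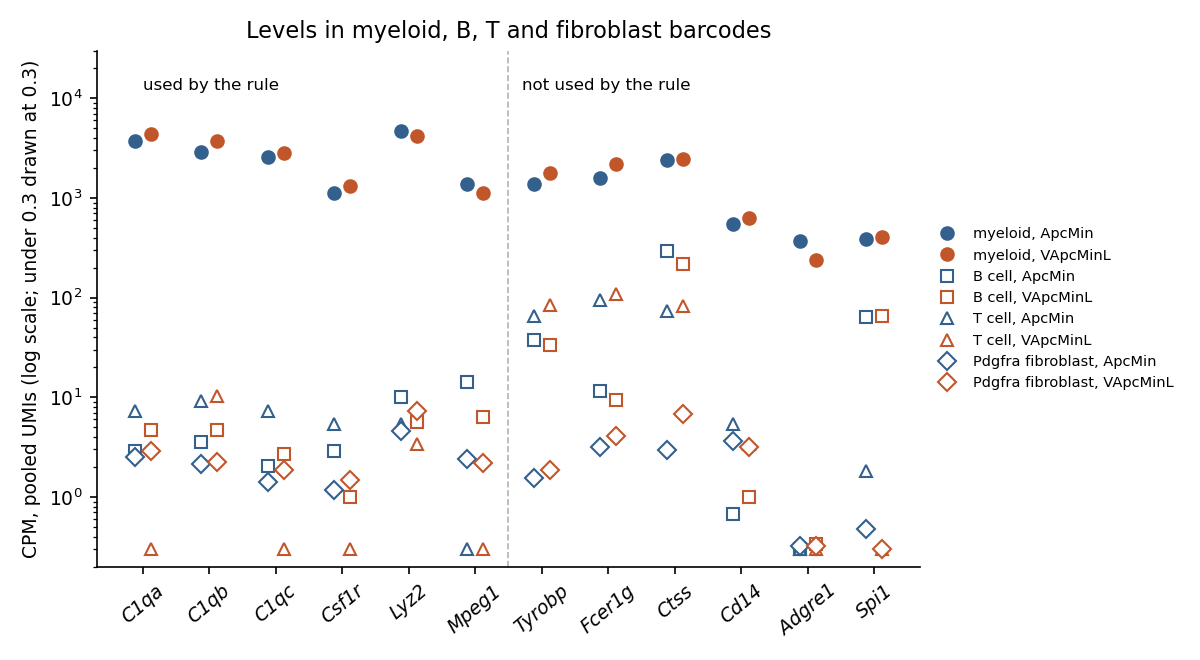
Pooled level in CPM (log scale, values under 0.3 drawn at 0.3) of the 6 rule genes and 6 myeloid genes outside the rule, in macrophage (filled circles), B cell, T cell and Pdgfra fibroblast barcodes (open symbols) of ApcMin (blue) and VApcMinL (orange). The macrophage points lie above all others for every gene, with Ctss in B cells, at 297 and 219 CPM, among the nearest.

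At the edge of the rule, 6 ApcMin and 2 VApcMinL cells had exactly 3 of the 6 genes. Another 17 and 13 barcodes met every other condition with exactly 2 genes. Of those, 52.9% and 46.2% held the adaptor gene Tyrobp, compared with 66.7% and 100% of the cells at 3 genes, so some barcodes just outside the rule also carried myeloid RNA. Barcodes with at least 3 of the genes but no Ptprc UMI numbered 49 in ApcMin and 230 in VApcMinL, and their median depth was 8320 and 1786 UMIs.

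Depth separated the libraries. The median macrophage held 9398 UMIs and 2624 genes in ApcMin but 2151 UMIs and 917 genes in VApcMinL. Cells under 3000 UMIs made up 18.8% of ApcMin and 58.0% of VApcMinL macrophages, although they carried only 3.13% and 17.2% of the macrophage UMIs. The pooled levels below therefore rest mostly on deeper cells in both libraries. Where a share is given after thinning, each cell was thinned to 1000 UMIs. Other shares and numbers of cells with a gene are at full depth and not matched for depth. Whole libraries were closer in size, at 93203061 and 101609269 UMIs, and the median passing barcode held 9663 and 6792 UMIs. No macrophage barcode occurred among the macrophages of both libraries, and 24 passing barcodes were shared.

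**Figure D2:**
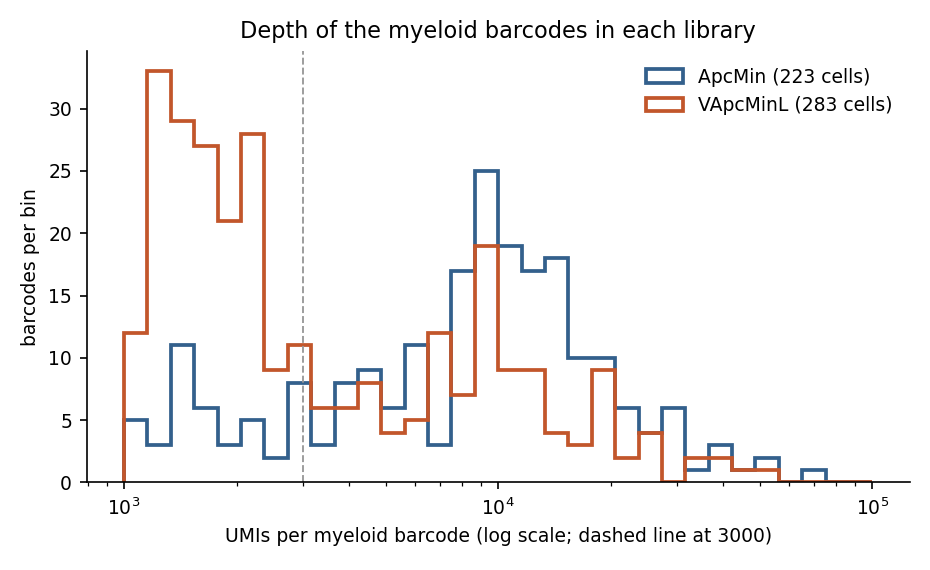
Number of macrophage barcodes by UMIs per barcode (log scale) in ApcMin (223 cells, blue) and VApcMinL (283 cells, orange), with a dashed line at 3000 UMIs. Both libraries have a group of deeper cells above the line, and VApcMinL has a larger group under 3000 UMIs.

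RNA from other cells was measured in the same barcodes. Immunoglobulin genes took 0.474% of the UMIs of ApcMin and 1.49% of the UMIs of VApcMinL macrophages, which is 3.36% and 9.34% of their share in droplets without a cell. Hemoglobin genes stood at 37.6% and 45.7% of their empty-droplet share, and epithelial genes at 27.4% and 6.71%. In VApcMinL the immunoglobulin genes took 2.95% in macrophages under 3000 UMIs and 1.19% in deeper ones. The summed plasma cell list had 4779.8 and 14861 CPM, the fibroblast list 320 and 520 CPM, the epithelial list 245 and 753 CPM, and the erythroid list 26614 and 9454 CPM. The endothelial list had 162 and 380 CPM, the smooth muscle list 23.98 and 95.3 CPM, and the glia and neuron list 3.66 and 92.2 CPM. All of these but the erythroid list were thus higher in VApcMinL. The B cell list had 170 and 169 CPM and the T cell list 63.0 and 47.1 CPM. Their part in the differences between genotypes was not tested.

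Macrophages made up 2.94% (2.57% to 3.34%) of the passing ApcMin barcodes and 3.29% (2.92% to 3.69%) of the passing VApcMinL barcodes. The ratio of VApcMinL to ApcMin was 1.12 (0.937 to 1.34). Among barcodes with Ptprc, the shares were 14.9% (13.2% to 16.9%) of 1492 and 24.8% (22.3% to 27.4%) of 1141, a ratio of 1.66 (1.39 to 1.99). These ratios moved with the depth limit: from a minimum of 5000 UMIs, with 160 and 92 macrophages left, the ratio was 0.619 (0.474 to 0.805) of all passing barcodes and 0.930 (0.712 to 1.21) of those with Ptprc. The data thus gave no direction for the number of macrophages that held across depth limits.

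Lef1 itself was absent from the counts of the macrophages, with 0 UMIs in 223 ApcMin and 0 in 283 VApcMinL cells, where 3 counts per library would be 1.22 and 1.86 CPM and the exact upper limits were 1.4996 and 2.28 CPM. Over all passing barcodes Lef1 had 126 UMIs in ApcMin and 122 in VApcMinL, and among macrophage, B cell, T cell and fibroblast barcodes its level was highest in T cell barcodes, at 74.6 CPM in ApcMin and 37.6 CPM in VApcMinL. Since the deletion was made in the epithelium and Epcam-positive cells were sorted out, these counts do not check the genotype. Of the 10 genes of a Lef/Tcf and Wnt response list, 6 had at least 50 UMIs over both libraries. Ccnd1, a cyclin gene and Wnt target, was the only one past 2-fold, at 105 CPM in ApcMin and 49.5 CPM in VApcMinL, a ratio of 0.470 (0.361 to 0.607). Tcf7l2, the family member with the most UMIs here, had 111 and 70.0 CPM, a ratio of 0.630 (0.502 to 0.788), while the Wnt co-receptor gene Lrp6 had 193 and 165 CPM, a ratio of 0.856 (0.734 to 0.997).

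Gene levels were then compared between the libraries over all 7123 genes with at least 50 UMIs. A gene was counted past 2-fold when the ratio of its pooled CPM, VApcMinL over ApcMin, was 2 or more, or 0.5 or less. By that rule 150 genes (2.11%) were higher and 141 (1.98%) were lower in VApcMinL, and the median gene had a log2 ratio of −0.08. By a second measure, the exact interval of the ratio lay above 1 for 11.1% and below 1 for 17.3% of these genes. That measure depends on depth: of the 571 genes with at least 1000 UMIs, the interval lay above 1 for 35.6% and below 1 for 35.0%. Counts of intervals in a list of abundant genes are to be read against the latter shares. The number of cells or the top cell is given below for some of the genes, because some ratios came from 1 cell. Ratios given without them may also rest on few cells.

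**Figure D3:**
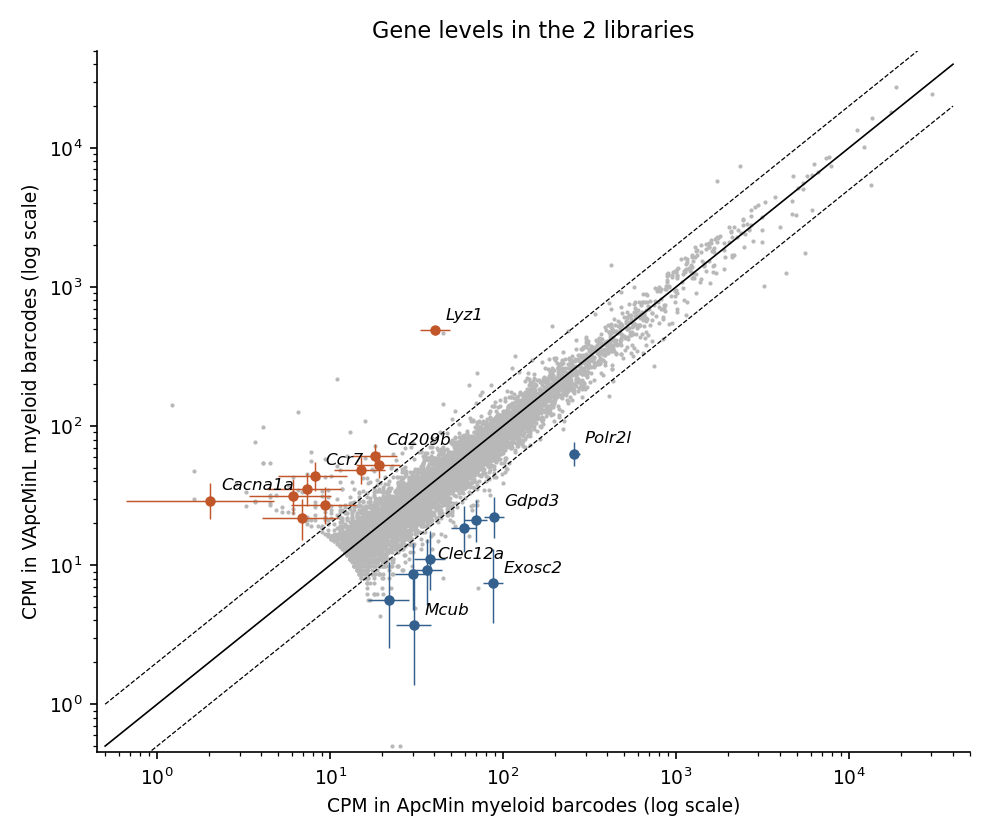
Pooled CPM of each of the 7123 genes in ApcMin (x axis) and VApcMinL (y axis) macrophages, both on log scales, with solid and dashed lines at equal levels and at 2-fold. Colored points with exact 95% Poisson intervals are the 10 genes of highest ratio (orange) and the 10 of lowest ratio (blue) that passed the filters, and Lyz1 lies at 40.7 and 488 CPM, beside a grey point for Fabp4. Values under 0.5 CPM are drawn at 0.5.

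Among the 10 genes named for a higher level in VApcMinL, Lyz1 had the most UMIs. It encodes the lysozyme of Paneth cells and is a neighbour and close copy of the macrophage gene Lyz2 on chromosome 10 (Lyz1 at chr10:117287797-117292868). Lyz1 had 100 UMIs in 11 ApcMin macrophages and 788 UMIs in 119 VApcMinL macrophages, or 40.7 and 488 CPM, a ratio of 12.0 (9.74 to 14.9). A single cell held 87 of the ApcMin UMIs and another held 466 of the VApcMinL UMIs. Without these cells the ratio was 37.7, and after thinning Lyz1 was found in 1.35% and 18.0% of the macrophages. Lyz1 UMIs were thus spread over many more cells in VApcMinL, and outside the top cell only 13 UMIs were left in ApcMin against 322 in VApcMinL. Lyz2, a gene of the rule, was found in 117 of the 119 VApcMinL cells with Lyz1, beside 272 of all 283 VApcMinL macrophages.

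The assignment of reads between both lysozyme genes is uncertain. The transcripts were identical at 96.0% of 1262 aligned bases, and 34.2% of the 31-base words of Lyz1 also occurred in Lyz2. Lyz2 itself differed little, with a ratio of 0.897 (0.870 to 0.924). The Paneth cell defensin genes, 22 in all, had 5 UMIs in ApcMin and 1 UMI in VApcMinL macrophages. Droplets without a cell held Lyz1 at 5.53 and 35.3 CPM, below the pooled macrophage level. The pooled ApcMin level came mostly from 1 cell, however. In ApcMin clusters 1, 2 and 4, described below, Lyz1 had 8.05, 6.54 and 3.42 CPM, near the empty level. Cluster 3, which held that cell, had 101 CPM. The likeness reaches into the upstream sequence, printed here from RefSeq as 80 bases at matching positions ahead of both genes, minus strand of GRCm38.p6, with bases that differ in capitals. The windows were identical at 70 of 80 bases. The windows are chr10:117292918-117292997 for Lyz1 and chr10:117282322-117282401 for Lyz2.
Lyz1: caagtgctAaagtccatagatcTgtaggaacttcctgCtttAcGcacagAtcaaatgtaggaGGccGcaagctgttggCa
Lyz2: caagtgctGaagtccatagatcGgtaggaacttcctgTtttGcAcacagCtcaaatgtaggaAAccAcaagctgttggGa

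Cacna1a, a calcium channel subunit gene at chr8:84388440-84640246, had 5 UMIs in 4 ApcMin cells and 47 UMIs in 24 VApcMinL cells, a ratio of 14.3 (5.72 to 46.1). No cell held more than 5 of them. In ApcMin macrophages its 2.03 CPM was under the 6.92 CPM of empty droplets, and fibroblast barcodes held it at 24.9 and 14.9 CPM. Cd209b, which encodes a C-type lectin that binds microbial sugars, had 45 UMIs in 24 ApcMin and 99 UMIs in 48 VApcMinL cells, a ratio of 3.35 (2.33 to 4.88). The peptide transporter gene Slc15a2, which carries bacterial peptides, had 37 and 78 UMIs in 19 and 36 cells, a ratio of 3.21 (2.14 to 4.89), and was also higher in VApcMinL in fibroblast barcodes, at 2.46 and 11.5 CPM. Gbp9, of the interferon-induced guanylate-binding proteins, had 47 and 85 UMIs in 34 and 50 cells, a ratio of 2.75 (1.91 to 4.02). Leaving out the top cell of each library left the ratios of Cd209b, Slc15a2 and Gbp9 at 3.65, 3.32 and 2.73. The remaining genes by the rule were 1500011B03Rik (4.82), Gm11713 (3.14), Fam129b (2.91), Gm37800 (5.18) and Ccr7 (5.41). The last ratio came from few cells, since 1 cell held 55 of the 71 VApcMinL UMIs of the migration receptor gene Ccr7, and likewise 1 cell held 38 of the 51 VApcMinL UMIs of Gm37800. Without the top cells these ratios were 2.03 and 1.52. In fibroblast barcodes 1500011B03Rik had 5.13 and 15.1 CPM.

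Among the genes lower in VApcMinL, Exosc2, a subunit gene of the RNA exosome, had 216 UMIs in 22 ApcMin cells and 12 UMIs in 10 VApcMinL cells, a ratio of 0.0846 (0.0430 to 0.151). A single ApcMin cell held 75 of these, and the ratio was 0.108 without the top cells. Mcub, which encodes a subunit that dampens the mitochondrial calcium channel, had 75 UMIs in 51 ApcMin cells and 6 UMIs in 6 VApcMinL cells, a ratio of 0.122 (0.0433 to 0.278). Mcub lies at chr3:129914960-129970206, 1140.3 kb from Lef1 (chr3:131110471-131224356). It was lower in VApcMinL in fibroblast barcodes too, at 4.05 and 0.594 CPM. It was found there in 4.88% and 0.385% of barcodes at full depth, and in 0.380% and 0% after thinning. Polr2l, a small RNA polymerase subunit gene, had 637 UMIs in 89 cells and 102 UMIs in 44 cells, a ratio of 0.244 (0.196 to 0.301). The lysophospholipase gene Gdpd3 had 219 and 36 UMIs in 71 and 25 cells, a ratio of 0.2503 (0.171 to 0.357), with 8.86 and 1.21 CPM in fibroblast barcodes. The lower levels of Mcub and Gdpd3 were thus not confined to the macrophages, while Polr2l had 27.5 and 33.3 CPM in fibroblast barcodes. The inhibitory lectin receptor gene Clec12a had 89 and 15 UMIs in 37 and 8 cells, a ratio of 0.257 (0.138 to 0.446). All of these remained under 0.5 without the top cells. The others by the rule were Catip (0.254), Clip2 (0.295), Ermap (0.313), C730034F03Rik (0.288) and Inhba (0.303). The activin subunit gene Inhba and C730034F03Rik do not belong with the rest, as 1 ApcMin cell held 152 of 171 and 59 of 74 UMIs, and without the top cells their ratios were 2.08 and 1.22.

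The plot of log2 ratios by list shows the members of 25 lists around the median of all tested genes. The median log2 ratio of a list ran from −0.53 for immediate early and dissociation genes to 0.36 for interferon-induced genes, beside −0.08 for all tested genes. The lists had from 0 to 3 members past 2-fold in a direction.

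**Figure D4:**
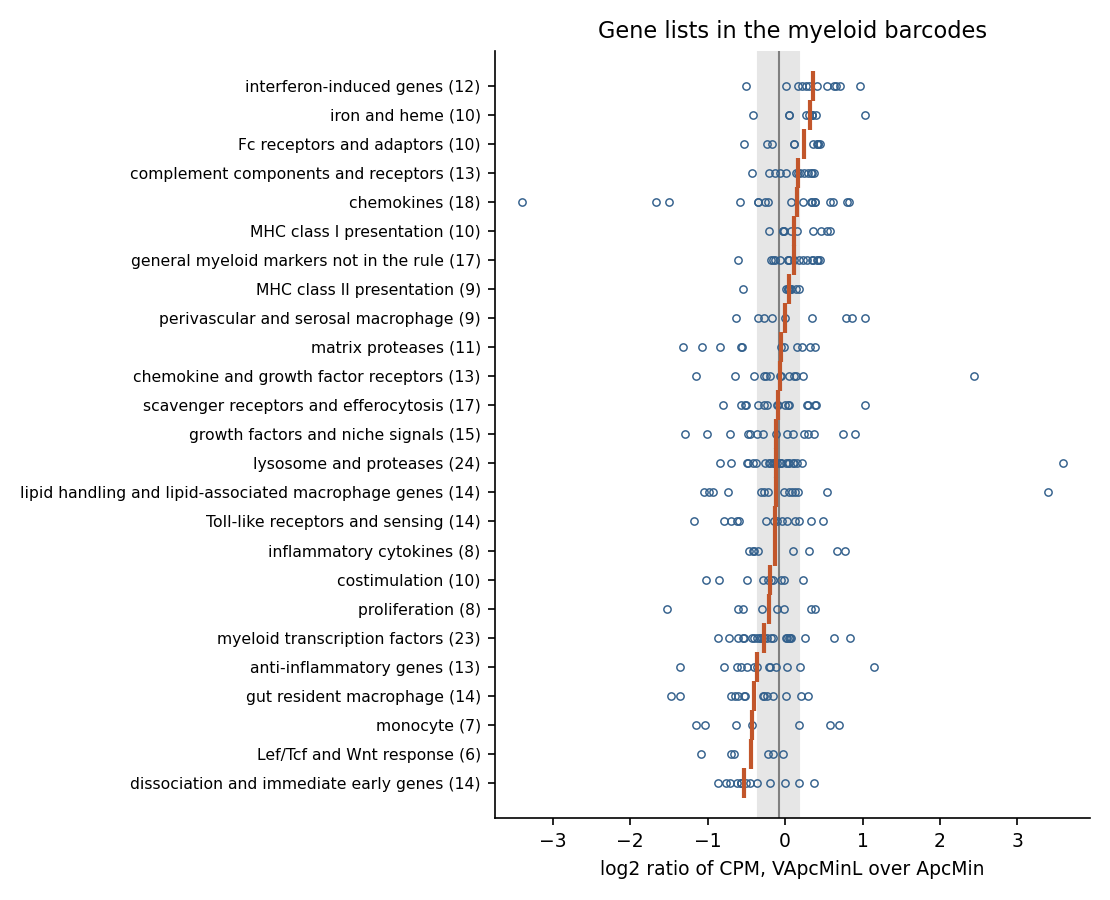
Log2 ratio of CPM, VApcMinL over ApcMin, for each tested member (open circles) of 25 gene lists, with the list's median (orange bar) and number of tested members in brackets. The grey band and line are the quartiles and the median (−0.08) of all 7123 tested genes. The band shows the spread of single genes and is no yardstick for a median, and the list medians run from −0.53 to 0.36.

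No gene of antigen presentation or complement was past 2-fold. Of 9 tested MHC class II genes none was past 2-fold, and their median log2 ratio was 0.06. H2-Aa, a chain of the class II molecule, had 6589.6 CPM in ApcMin and 6752 CPM in VApcMinL, a ratio of 1.02 with an interval from just under 1 to 1.05, and the invariant chain gene Cd74 had 17525 and 18224 CPM. Their activator gene Ciita was the one member with an interval below 1, at 102 and 70.6 CPM, a ratio of 0.689 (0.547 to 0.863). The near-equal pooled level of H2-Aa did not hold within each of the clusters described below. H2-Aa had 8053 CPM in ApcMin and 5486 CPM in VApcMinL in cluster 1. In cluster 4 it had 6709 and 6464 CPM. It was higher in VApcMinL in cluster 2 (6181 and 7976 CPM) and cluster 3 (5070.5 and 6009 CPM). Of 13 tested complement genes none was past 2-fold. The chains C1qa, C1qb and C1qc, which chose the cells, had ratios of 1.19, 1.30 and 1.10, and for C1qa and C1qc the direction turned when the profile of empty droplets was subtracted. Fc receptor and adaptor genes, which bind antibody and signal, had a median log2 ratio of 0.24 with 0 of 10 past 2-fold, led by Fcer1g at 1594 and 2181 CPM and Tyrobp at 1389 and 1782 CPM.

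Markers of resident gut macrophages had a median log2 ratio of −0.40. Of 14 tested, 11 had intervals below 1 and 2 above. The shares were 17.3% and 11.1% of all genes, and 35.0% and 35.6% of those with at least 1000 UMIs. Hes1 and Il10 were past 2-fold, 2 of 14 against the 1.98% of all genes. The Notch target gene Hes1 had 747 CPM in ApcMin and 269 CPM in VApcMinL, a ratio of 0.360 (0.324 to 0.4004), but fibroblast barcodes of both libraries held it at similar levels, 852 and 708 CPM. The anti-inflammatory cytokine gene Il10 had 246 UMIs in ApcMin and 63 UMIs in VApcMinL macrophages, a ratio of 0.390 (0.291 to 0.516), and was found after thinning in 5.83% and 2.12% of macrophages. The chemokine receptor gene Cx3cr1 had 574 and 365 CPM, a ratio of 0.637 (0.577 to 0.702), and Adgre1, which encodes the antigen F4/80, had 370 and 241 CPM, a ratio of 0.653 (0.579 to 0.737). From a minimum of 5000 UMIs, added after seeing the data, the log2 ratios of Hes1, Il10, Cx3cr1 and Adgre1 were −1.60, −1.36, −0.66 and −0.60. The 4 genes were thus lower in VApcMinL among deep cells. The pooled levels already rest mostly on deeper cells, so this is no separate check.

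Of 9 tested perivascular and serosal macrophage genes, Cd163 was the only one past 2-fold. This hemoglobin scavenger receptor gene had 147 CPM in ApcMin and 300 CPM in VApcMinL, a ratio of 2.04 (1.77 to 2.34), while after thinning it was found in 12.6% and 10.2% of cells. The transglutaminase gene F13a1 had 105 and 180 CPM, but its direction turned in the mean over cells. The mannose receptor gene Mrc1 had 748 CPM in both libraries. The higher Cd163 level thus stood beside no higher share of cells with the gene, and the mean over cells gave a log2 ratio of only 0.27.

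Growth factor and matrix genes differed one by one. The list of 15 tested growth factors and niche signals had a median log2 ratio of −0.12, with Bmp2 and Wnt4 past 2-fold. Bmp2, a BMP ligand gene, had 71.1 CPM in ApcMin and 29.1 CPM in VApcMinL, a ratio of 0.409 (0.290 to 0.567). Wnt4, a Wnt ligand gene, had 164 and 81.1 CPM, a ratio of 0.495 (0.403 to 0.604), and a level of 444 and 153 CPM in the cluster of macrophages in which it was highest. Tgfb1 had 401 and 407 CPM, a ratio of 1.01 (0.918 to 1.12). Among 11 tested matrix proteases and their inhibitors the elastase gene Mmp12 had 411 and 165 CPM, a ratio of 0.401 (0.349 to 0.460), and Mmp9 had 571 and 749 CPM, a ratio of 1.31 (1.21 to 1.42). The protease-like gene Adamdec1, typical of gut macrophages, had 863 and 962 CPM, against 1101 and 2895 CPM in fibroblast barcodes. Mmp12 kept a ratio of 0.466 without the top cells, of which the ApcMin one held 298 of 1010 UMIs.

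Chemokine genes went both ways. Ccl17, Cxcl3 and Cxcl14 were past 2-fold, all lower in VApcMinL. In ApcMin 1 cell held 99 of the 103 Ccl17 UMIs, 1 cell held 110 of the 176 Cxcl3 UMIs and 1 cell held 53 UMIs of Cxcl14. Of 18 tested, 8 had intervals above 1 and 8 below, beside 35.6% and 35.0% of all genes with at least 1000 UMIs. Their summed level had a ratio of 0.997 (0.972 to 1.02). The eosinophil attractant gene Ccl24 had 571 CPM in ApcMin and 1008 CPM in VApcMinL, a ratio of 1.77 (1.64 to 1.90), while the monocyte attractant gene Ccl2, at 139 and 243 CPM, was under its level in fibroblast barcodes, at 326 and 364 CPM. Ccl4 had 1160.2 and 774 CPM, a ratio of 0.667 (0.624 to 0.713), and the neutrophil attractant gene Cxcl2 had 1379 and 1078 CPM, a ratio of 0.782 (0.738 to 0.829). Of 8 tested inflammatory cytokine genes none was past 2-fold, and Il1b had 1211 and 1296 CPM with a direction that turned under 5 of the alternatives.

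In lipid handling, Apoe, which encodes a lipid carrier, was the gene of highest CPM of its list, at 18743 in ApcMin and 27275 in VApcMinL, a ratio of 1.46 (1.44 to 1.47). The higher level was not confined to the macrophages. Apoe had 703 and 2279 CPM in fibroblast, 522 and 994 CPM in B cell and 60.0 and 68.3 CPM in T cell barcodes. Gpnmb, a lysosomal membrane gene of lipid-laden macrophages, had 88.2 and 42.7 CPM, a ratio of 0.484 (0.364 to 0.638). Fabp4 had 44.7 and 470 CPM, but droplets without a cell held it at 869 and 377 CPM. Of 24 tested lysosomal and protease genes only Lyz1 was past 2-fold. Intervals lay below 1 for 11 and above 1 for 4, beside 35.0% and 35.6% of all genes with at least 1000 UMIs. The ratio of the summed level turned when 2 of the 6 rule genes were enough. Among the 11 with intervals below 1 is Psap, which encodes the saposins that help break down sphingolipids. It had 4672 and 3345 CPM, a ratio of 0.716 (0.693 to 0.740). The cathepsin gene Ctsd had 732 and 407 CPM, a ratio of 0.557 (0.508 to 0.609), and Ctsb had 2778 and 2145 CPM, a ratio of 0.772 (0.741 to 0.804).

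The counts of intervals in the next 3 lists are to be read beside those of all genes. Over all tested genes, intervals lay above 1 for 11.1% and below 1 for 17.3%. Over those with at least 1000 UMIs the shares were 35.6% and 35.0%. Of 12 tested interferon-induced genes none was past 2-fold. Intervals lay above 1 for 6 and below 1 for 1, and the summed level was 1.42-fold that of ApcMin (1.35 to 1.48), but only 2 members lay at 2 times or more the level of empty droplets. Ifitm3, an antiviral membrane protein gene, had 424 and 693 CPM, a ratio of 1.64 (1.503 to 1.78), though empty droplets held 537 and 802 CPM. The ubiquitin-like gene Isg15 had 264 and 415 CPM, a ratio of 1.57 (1.41 to 1.76), well above its 84.9 and 114 CPM in empty droplets. Immediate early and heat shock genes, which are known to respond to tissue digestion, had 0 of 14 past 2-fold and 11 with intervals below 1, and 3 lay at 2 times or more the level of empty droplets. The heat shock gene Hspa1b had 6105 and 3597 CPM, a ratio of 0.589 (0.572 to 0.607), and Junb had 3127 and 2102 CPM, a ratio of 0.672 (0.645 to 0.69998). Of 23 tested myeloid transcription factor genes none was past 2-fold. Intervals lay below 1 for 14 and above 1 for 3, and 14 of the 23 lay at 2 times or more the empty level. Below 1 were Irf8, at 428 and 259 CPM, and the immediate early gene Atf3, at 1146 and 629 CPM.

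The remaining lists are given by their counts and medians. Among all tested genes, 2.11% were past 2-fold higher and 1.98% past 2-fold lower in VApcMinL. Monocyte genes had 2 of 7 tested past 2-fold, both lower in VApcMinL, and a median log2 ratio of −0.42. The summed level had a log2 ratio of −0.26, which turned to 0.37 without the Ptprc condition. The monocyte receptor gene Ccr2 had 77.2 CPM in ApcMin and 34.7 CPM in VApcMinL, a ratio of 0.449 (0.327 to 0.608). Fn1 had 224 and 110 CPM, but droplets without a cell held it at 227 and 265 CPM. In cluster 3, described below, 1 ApcMin cell held 54 of the 113 Ccr2 UMIs, and 1 held 132 of the 514 Fn1 UMIs. Anti-inflammatory genes had a median of −0.37 over 13 tested, with Arg1 higher, at 50.8 and 113 CPM, and Il10 lower. A single cell of each library held 61 of the 125 and 83 of the 182 Arg1 UMIs. Scavenger receptors (17 tested, median −0.10) and iron and heme genes (10 tested, median 0.33) had Cd163 alone past 2-fold. The median of MHC class I genes was 0.11 over 10 tested, and none was past 2-fold. Costimulation genes (10 tested, median −0.20), Toll-like receptors and sensors (14 tested, median −0.13) and proliferation genes (8 tested, median −0.20) each had 1 gene lower past 2-fold, Tnfsf9, Nod2 and Pclaf. Chemokine and growth factor receptors had a median of −0.07 over 13 tested, with Ccr7 higher and Ccr2 lower.

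States among the macrophages were sought in the 300 cells of at least 3000 UMIs, 181 from ApcMin and 119 from VApcMinL, each thinned to 3000 UMIs before clustering. The setting was settled after cells per library had been seen, and 5 settings in all were tried, which gave between 3 and 7 clusters. The clusters are named by their leading genes only, those genes are a description, and cluster sizes are not compared between genotypes. Cluster 1, with 130 cells, was led by Ccl7, Cd163 and F13a1, of which Cd163 and F13a1 are markers of perivascular and serosal macrophages. Cluster 2, with 36 cells of the lowest median depth at 4599 UMIs, was led by Cst3 and Gm2a at no more than 3.49-fold the other clusters. Cluster 3, with 73 cells of the highest median depth at 17898 UMIs, was led by Mmp12, Il7r and Trem1, and cluster 4, with 61 cells, by 2900052N01Rik, Rgs1 and Ganc, with the phosphatidylserine receptor gene Timd4 among its first 10.

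Of the rule genes, C1qa ran from 2688 CPM in cluster 2 to 4363 CPM in cluster 3, and Lyz2 from 1344 CPM in cluster 2 to 6523 CPM in cluster 3. H2-Aa, outside the rule, ran from 5444.5 CPM in cluster 3 to 7044 CPM in cluster 1. By contrast Cd163 had 630.5 CPM in cluster 1 and 0, 28.7 and 18.2 CPM in clusters 2, 3 and 4. Cluster 1 also held the highest levels of Mrc1 (1667 CPM), Klf2 (1445 CPM) and Bmp2 (166 CPM). Cluster 3 held Fn1 at 438 CPM, Arg1 at 200 CPM, Spp1 at 286 CPM and Vegfa at 319 CPM, genes of matrix, arginine use and vessel growth. Cluster 4 held Hes1 at 1729 CPM, Wnt4 at 391 CPM and Adamdec1 at 1897 CPM.

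**Figure D5:**
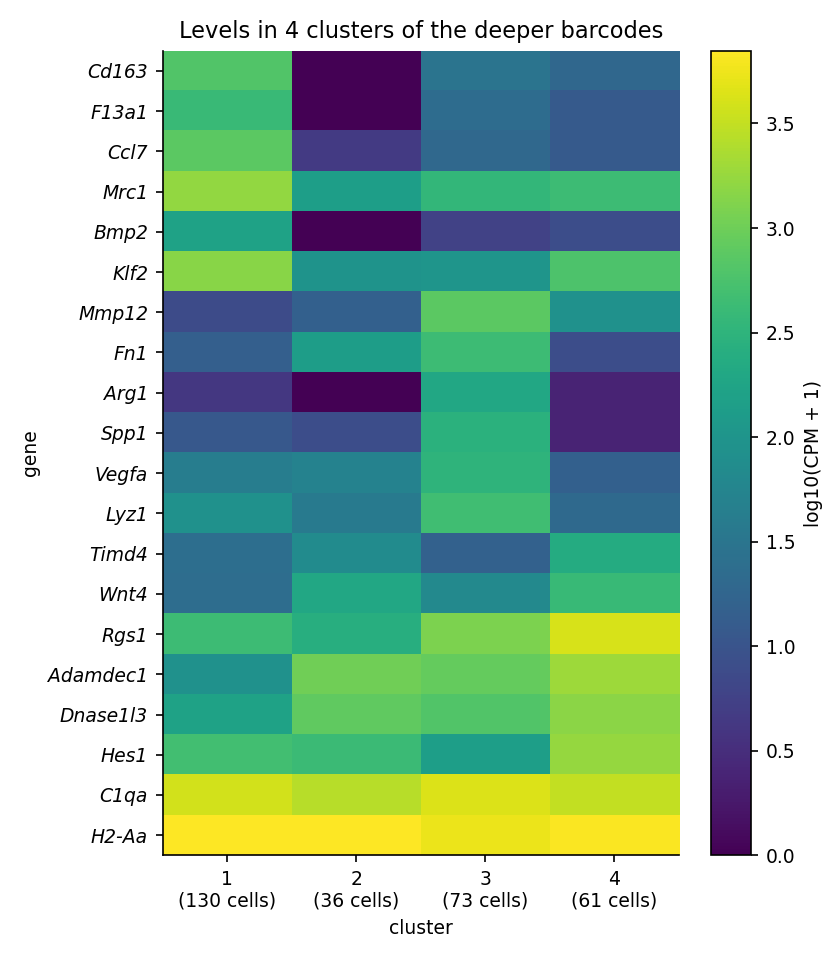
Level of 20 genes, as log10(CPM + 1), in 4 clusters of the 300 macrophages with at least 3000 UMIs, both libraries pooled. Cd163, F13a1 and Ccl7 are highest in cluster 1, Mmp12, Fn1 and Arg1 in cluster 3, and Timd4, Wnt4 and Hes1 in cluster 4, while C1qa and H2-Aa are high in all.

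Within clusters, the libraries were compared for genes that did not lead the cluster, apart from Lyz1 in cluster 3 and Cd163 in cluster 1. Hes1 had 654 CPM in ApcMin and 234 CPM in VApcMinL in cluster 1, and 1928 and 841 CPM in cluster 4, but 281 and 583 CPM in cluster 2. Il10 had 123 and 47.7 CPM in cluster 1 and 193 and 130 CPM in cluster 4. At full depth, the share of cells with Il10 was close in both libraries, 18.2% and 18.9% in cluster 1 and 38.3% and 35.7% in cluster 4. A single ApcMin cell held 30 of the 92 UMIs of cluster 1. Lyz1 had 8.05 and 213 CPM in cluster 1, 6.54 and 70.9 CPM in cluster 2, 101 and 996 CPM in cluster 3, and 3.42 and 91.7 CPM in cluster 4. In cluster 3, 1 ApcMin cell held 87 of the 91 Lyz1 UMIs and 1 VApcMinL cell held 466 of the 594. At full depth Lyz1 was found in 9.76% and 81.3% of the cells of cluster 3. Cd163 had 460 and 893 CPM in cluster 1. Each of these pairs is 1 library against 1, and cluster 4 rests on 47 ApcMin and 14 VApcMinL cells, so that the pooled ratios of Hes1, Wnt4 and Il10, which are highest there, also carry how many of its cells each library gave. Lyz1 was thus higher in VApcMinL in each of the 4 clusters, and Hes1 was lower in 3 of them.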

How the data were processed

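Single-cell RNA was measured with a droplet-based 3′ assay in 2 libraries, 1 per genotype. The deposited values were raw UMI counts per gene and barcode, which the authors made by alignment to mm10 (GRCm38) with Cell Ranger. The file headers name release 3.1.0 and the labels name 2.1.1, and Seurat 3.1.1 is listed in the submitters' processing notes. Each matrix held 6794880 barcodes and 31053 genes. All values here were computed from these counts in Python 3.11.15 with scipy 1.17.1 and scanpy 1.11.5.

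CPM are the UMIs of a gene summed over the macrophages per 1000000 of their UMIs. Intervals are exact (Clopper-Pearson for shares, Poisson for CPM, conditional binomial for ratios) with 95% confidence and cover counting error only, and a count of 0 was set at 3 counts in ratios. Droplets without a cell were the barcodes at depth ranks 45000 to 90000. No differential test was run, because each genotype had 1 library. Genes needed 50 UMIs over both libraries.

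The genes named were the 10 of highest and the 10 of lowest ratio among those past 2-fold, detected in at least 10 macrophages and, in the library of higher CPM, at 2 times or more the level of its empty droplets, leaving out mitochondrial, immunoglobulin, hemoglobin and sex-linked marker genes. The macrophages and the gene lists were chosen with earlier results of these data known. Scrublet made 0 and 1 calls and so did not work as a caller, and no doublets were removed. In an alternative, the highest scores (461 and 591 barcodes, with 16 and 14 macrophages) were left out. Cells for clustering were thinned to 3000 UMIs, genes under 2 times the empty level were left out, and 1500 variable genes, 15 components, 15 neighbours and a resolution of 0.4 were used. This setting was 1 of 5 tried after seeing the data. Positions are from GENCODE vM21, which held 30934 of the 31053 genes, and upstream sequences are from RefSeq (GRCm38.p6). The ratio code was tested on simulated data.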

Additional observations from a re-analysis of the deposited data

Results flagged for a closer look

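A signal of other myeloid cells appeared in droplets without a cell, outside the macrophages compared here, and differed between the libraries. In ApcMin these droplets held the mast cell protease genes Mcpt1 at 1546.5 CPM (5590 UMIs) and Mcpt2 at 1358 CPM (4910 UMIs), against 3.102 and 4.46 CPM in VApcMinL. The ApcMin macrophages held 62 and 47 UMIs of these genes and the VApcMinL macrophages none. In VApcMinL the empty droplets held the neutrophil genes S100a8 at 137 CPM (707 UMIs) and S100a9 at 213 CPM (1099 UMIs), against 2.49 and 2.77 CPM in ApcMin. The macrophages of either library held at most 1 UMI of each. With 1 library per genotype, the genotype and the library cannot be told apart.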

How the results depend on the processing

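No paired analysis was possible because there was only 1 library of either genotype, and for the same reason no library could be left out. The ratio of macrophage shares (1.12) was 0.795 at a minimum of 2000 UMIs, 0.619 at 5000 and 1.58 without the Ptprc condition. The ratio among Ptprc barcodes (1.66) was 1.22 at 2000 and 0.930 at 5000. The minimum of 5000 UMIs and leaving out the top cell of each gene were added after seeing the data. The share of cells with C1q was 90.4% and 95.6% with 2 of 6 markers, and 99.5% in ApcMin with 4. The number of genes tested (7123) was 7864 with 2 markers, 7778 without Ptprc, 6535 with the empty profile subtracted, 1451 after thinning, 6731 without top cells, and 9581, 3071 and 15911 with a gene filter of 20, of 200 and none. The count 2-fold higher (150) was 315 without Ptprc, 53 after thinning (3.65% of those tested, against 2.11%), 233 as a mean over cells, 462, 25 and 2743 with those filters, and 92 without top cells. The count lower (141) was 425 with 2 markers, 277 without Ptprc, 346 with the empty profile subtracted, 106 after thinning (7.31%, against 1.98%), 759 as a mean over cells, and 370, 31 and 824 with those filters. The median log2 ratio of all genes (−0.08) was −0.29 with the empty profile subtracted and −0.26 as a mean over cells.

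Some log2 ratios turned, those of lists being ratios of the summed level. A turn was counted only where the main interval left out a ratio of 1. Other changes of direction are not among them. At 2000 and 5000 UMIs, Cd74 was −0.067 and −0.18 and the MHC class II list −0.056 and −0.14. With 2 markers, Lyz2 was 0.024, the lysosome list 0.042 and the matrix protease list 0.093. Without Ptprc, Il1b was −0.081, the monocyte list 0.37 and the Toll-like list −0.026. Without the highest Scrublet scores Il1b was −0.0029. With the empty profile subtracted, C1qa was −0.062, C1qc −0.17, Csf1r −0.080, Cd74 −0.24, Adamdec1 −0.090, Il1b −0.20, Fth1 −0.031, and the general myeloid list −0.14, perivascular −0.11, complement −0.074, MHC class II −0.25, MHC class I −0.13, Toll-like −0.17 and iron −0.099. After thinning, Lyz2 was 0.051, Il1b −0.38, the perivascular list −0.35 and the Toll-like list −0.31. As a mean over cells, Lyz2 was 0.054, F13a1 −0.24, Il1b −0.42, perivascular −0.32 and Toll-like −0.17. Without top cells, C730034F03Rik was 0.28 and Inhba 1.06. Over 1019 values for 73 genes, 19 turned and 221 moved by more than their interval. Over 350 values for 25 lists, 17 turned and 142 moved by more than their interval. The cause was not tested. After thinning, Cacna1a, Gm37800 and Catip had too few UMIs for a ratio. The low depth of VApcMinL macrophages limits what the shares and low genes can show.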
